A study of Mus musculus with 12 samples.

Results

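The genes described here are 8 transcription factor genes known from the stem cells of the mouse hair follicle: Lhx2, Sox9, Nfatc1, Tbx1, Tcf7l1, Tcf7l2, Barx2 and Zbtb16. The regions described are the open chromatin sites (peaks) that lie in one of these genes, or within 50 kb of its mm10 span with that gene as the nearest protein-coding gene. The rule used position alone and no measured value. It gave 285 of the 177240 peaks: 24 at Lhx2, 17 at Sox9, 47 at Nfatc1, 8 at Tbx1, 38 at Tcf7l1, 51 at Tcf7l2, 32 at Barx2 and 68 at Zbtb16. Of these, 208 overlap the gene and 77 lie outside it, and all 285 had enough reads to be tested.

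The data are ATAC-seq counts, in which a transposase cuts open DNA and the reads mark accessible sites, from sorted cells of female mice of mixed strain. There are 6 samples in 5 groups, and every sample was read in 2 runs, as single ends and as read pairs. Lgr5 Epcam- cells (1 sample) and Lgr5 Epcam+ cells (2 samples) come from tumours of mice whose alleles include Lgr5CreER, p53fl/fl and Rosa-YFP+/+, in which an inducible Cre driven by the Lgr5 gene, a follicle stem cell gene, turns on YFP and deletes p53, among other changes. K14 Epcam+ cells (1 sample) come from tumours of mice whose alleles include K14CreER, p53fl/fl and Rosa-YFP+/+, in which the keratin 14 promoter drives the same Cre. The labels give the cell type of the K14 tumour sample as interfollicular epidermis and that of the Lgr5 tumour samples as hair follicle. HF (1 sample) and IFE (1 sample) are normal hair follicle and interfollicular epidermis cells of wild-type mice. The 1 protocol given for all samples describes a dissected tumour and a sort with antibodies to CD45, CD31 and CD140a, which mark leukocytes, endothelium and fibroblasts, and to Epcam, an epithelial surface protein; how the normal cells were taken is not described. The labels do not say that the 2 Lgr5 Epcam+ samples came from separate animals, so p-values rest on the difference between that pair alone, which may be technical. Every tested difference borrows that spread for the groups with 1 sample.

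Stem cells of the hair follicle sit in the bulge, the lowest permanent part of the follicle, and rest between hair cycles until signals from the dermal papilla wake them. A small set of transcription factors keeps their identity. Sox9, an HMG-box factor, and Lhx2, a LIM-homeodomain factor, are needed to form and maintain them; Nfatc1, a calcineurin-dependent factor downstream of BMP signals, keeps them quiescent; Tbx1, a T-box factor, supports their self-renewal. Tcf7l1 and Tcf7l2 are HMG-box partners of beta-catenin that repress Wnt target genes when no Wnt signal is present. Barx2 is a Bar-class homeodomain factor of the follicle. Zbtb16 (PLZF), a BTB zinc finger repressor, is best known from spermatogonial stem cells and innate-like T cells. Genes that set a cell's identity often lie among many accessible enhancers, and the accessibility of those sites was what the counts measured.

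Start sites are shown for 4 of the genes, those with an entry among the annotated starts. The sequences are windows of 300 bases, 250 before to 50 after the annotated start, from RefSeq on GRCm38.p6, the assembly called mm10 elsewhere; 4 of the 8 genes matched an entry (Lhx2, Tbx1, Tcf7l1 and Tcf7l2). Each is written 5′ to 3′ on the gene's strand. Capitals mark the GC box GGGCGG on either strand, a common promoter element.
Lhx2 outer start (chr2:38339031-38339330, plus strand): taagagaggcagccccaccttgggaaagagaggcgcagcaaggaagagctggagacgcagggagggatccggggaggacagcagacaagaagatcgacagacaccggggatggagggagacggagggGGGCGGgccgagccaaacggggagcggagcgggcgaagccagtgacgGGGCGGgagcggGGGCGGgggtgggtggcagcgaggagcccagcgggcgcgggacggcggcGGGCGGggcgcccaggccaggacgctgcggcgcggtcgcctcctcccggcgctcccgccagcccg
Lhx2 inner start (chr2:38351058-38351357, plus strand): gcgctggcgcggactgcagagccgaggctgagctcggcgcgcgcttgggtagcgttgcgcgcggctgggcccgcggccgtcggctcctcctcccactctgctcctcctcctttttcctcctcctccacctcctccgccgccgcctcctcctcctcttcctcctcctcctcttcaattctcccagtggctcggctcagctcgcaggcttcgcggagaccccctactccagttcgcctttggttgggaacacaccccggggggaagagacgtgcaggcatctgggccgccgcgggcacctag
Tbx1 inner start (chr16:18588850-18589149, minus strand): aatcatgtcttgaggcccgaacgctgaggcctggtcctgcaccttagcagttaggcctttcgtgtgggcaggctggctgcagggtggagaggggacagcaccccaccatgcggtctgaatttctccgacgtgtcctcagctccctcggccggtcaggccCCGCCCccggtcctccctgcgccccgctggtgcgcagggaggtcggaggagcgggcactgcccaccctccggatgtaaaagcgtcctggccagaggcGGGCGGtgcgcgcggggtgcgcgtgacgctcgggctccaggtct
Tcf7l1 (chr6:72788996-72789295, minus strand): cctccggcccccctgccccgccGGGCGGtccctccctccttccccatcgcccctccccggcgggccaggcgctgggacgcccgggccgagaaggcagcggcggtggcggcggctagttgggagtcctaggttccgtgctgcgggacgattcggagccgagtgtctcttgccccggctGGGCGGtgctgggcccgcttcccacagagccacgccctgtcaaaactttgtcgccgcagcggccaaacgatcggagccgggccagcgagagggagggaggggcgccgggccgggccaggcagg
Tcf7l2 outer start (chr19:55741560-55741859, plus strand): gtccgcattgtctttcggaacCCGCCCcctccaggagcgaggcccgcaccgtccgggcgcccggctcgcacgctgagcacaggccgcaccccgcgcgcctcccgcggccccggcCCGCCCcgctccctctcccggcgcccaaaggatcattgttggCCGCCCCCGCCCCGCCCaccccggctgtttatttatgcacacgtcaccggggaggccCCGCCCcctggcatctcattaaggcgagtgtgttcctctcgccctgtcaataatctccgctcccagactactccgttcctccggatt
The Lhx2 outer window holds 4 GC boxes and the inner one 0, Tbx1 holds 2, Tcf7l1 2 and Tcf7l2 6, counted with overlaps. Of 32851 such windows in the table, 35.7% hold at least 1 GC box. The G and C content was 74.7%, 69.3%, 69.0%, 75.3% and 70.0% in the order printed. The CCAAT box (CCAAT), the AP-1 site (TGAGTCA or TGACTCA), the Tcf/Lef site (CTTTGAT) and the homeodomain site (TAATTA) were searched on both strands too, and none was found in these windows or in the second windows of Tbx1 and Tcf7l2; they occur in 37.4%, 5.20%, 3.73% and 5.29% of all windows.

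Counts used per sample were between 28891741 (HF) and 56649892 (the first Lgr5 Epcam+ sample), and the share of a run's reads that fell in peaks ran between 21.3% and 51.1%. Levels are given as CPM, counts relative to the sample's TMM-scaled total on chromosomes 1 to 14, not corrected for peak length. On chromosomes 16 to X the single-end run of K14 Epcam+ fell by 0.93 (median, log2 scale) against its own paired-end run, compared with chromosomes 1 to 14. The paired-end run alone was therefore used for every sample from chromosome 15 on, which touches Nfatc1 (chromosome 18), Tbx1 (16) and Tcf7l2 (19). Summed over the peaks of the Epcam gene, the level was 49.2 CPM in Lgr5 Epcam-, 255 and 237 CPM in Lgr5 Epcam+, 230 CPM in K14 Epcam+, 92.2 CPM in HF and 87.1 CPM in IFE. Over 8 fibroblast and pericyte markers it was 833 CPM in Lgr5 Epcam-, 275 and 285 CPM in Lgr5 Epcam+, 292 CPM in K14 Epcam+, 297 CPM in HF and 251 CPM in IFE. Over the 8 measured leukocyte markers it was 202 CPM in Lgr5 Epcam-, 237 and 254 CPM in Lgr5 Epcam+, 240 CPM in K14 Epcam+, 125 CPM in HF and 179 CPM in IFE, and no marker was at 0 in any sample. The labelled tissues show in Lgr5 itself, the bulge stem cell receptor, with 215 CPM in HF and 54.7 CPM in IFE, but not in Krt15, a bulge keratin, with 179 CPM in HF and 166 CPM in IFE.

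Of the 8 genes, only Zbtb16 and Lhx2 were lower in both main comparisons, whose tests are given after the levels. These set Lgr5 Epcam+ cells against HF, and the Epcam+ tumours against both normal samples. Tcf7l1 and Nfatc1 were lower in the second comparison only. The gap was wide against both normal tissues at Zbtb16, and mainly against HF at Lhx2. Summed over its 68 peaks, Zbtb16 had 120 CPM in Lgr5 Epcam-, 64.9 and 93.2 CPM in Lgr5 Epcam+ and 115 CPM in K14 Epcam+, against 537 CPM in HF and 562 CPM in IFE. Lhx2 had 107 CPM in Lgr5 Epcam-, 74.4 and 78.4 CPM in Lgr5 Epcam+ and 69.7 CPM in K14 Epcam+, against 310 CPM in HF and 117 CPM in IFE. Thus all 4 tumour samples lay below both normal samples at Zbtb16 and at Lhx2, and at Lhx2 HF stood well above the other 5 samples. Sox9 had 129 CPM in Lgr5 Epcam-, 172 and 178 CPM in Lgr5 Epcam+ and 147 CPM in K14 Epcam+, against 123 CPM in HF and 76.8 CPM in IFE. Sox9 was the 1 gene of the 8 whose 4 tumour sums all lay above both normal sums. How often the sums of all genes separate in this way was not counted. Among all single peaks, 22.8% had all 4 tumour samples below both normal samples and 20.1% above both. These are sums over sorted cell populations, so fewer cells with an open site and less access per cell cannot be told apart.

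The 4 tumour sums were also below both normal sums at Barx2, with 96.9 CPM in Lgr5 Epcam-, 208 and 237 CPM in Lgr5 Epcam+ and 177 CPM in K14 Epcam+, against 365 CPM in HF and 268 CPM in IFE. Nfatc1 had 293 CPM in Lgr5 Epcam-, 264 and 307 CPM in Lgr5 Epcam+ and 201 CPM in K14 Epcam+, against 541 CPM in HF and 318 CPM in IFE. Here too no tumour sample reached either normal sample, though the second Lgr5 Epcam+ sample came close to IFE. Tcf7l1 had 276 CPM in Lgr5 Epcam-, 157 and 188 CPM in Lgr5 Epcam+ and 142 CPM in K14 Epcam+, against 299 CPM in HF and 256 CPM in IFE. Its 3 Epcam+ tumour samples were below both normal samples, while the Lgr5 Epcam- sample lay between HF and IFE. Tcf7l2 had 296 CPM in Lgr5 Epcam-, 292 and 251 CPM in Lgr5 Epcam+ and 225 CPM in K14 Epcam+, against 347 CPM in HF and 284 CPM in IFE. Tbx1 had 51.3 CPM in Lgr5 Epcam-, 82.3 and 45.6 CPM in Lgr5 Epcam+ and 66.5 CPM in K14 Epcam+, against 96.9 CPM in HF and 22.4 CPM in IFE. At these last 2 genes the tumour and normal samples overlapped.

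**Figure D1:**
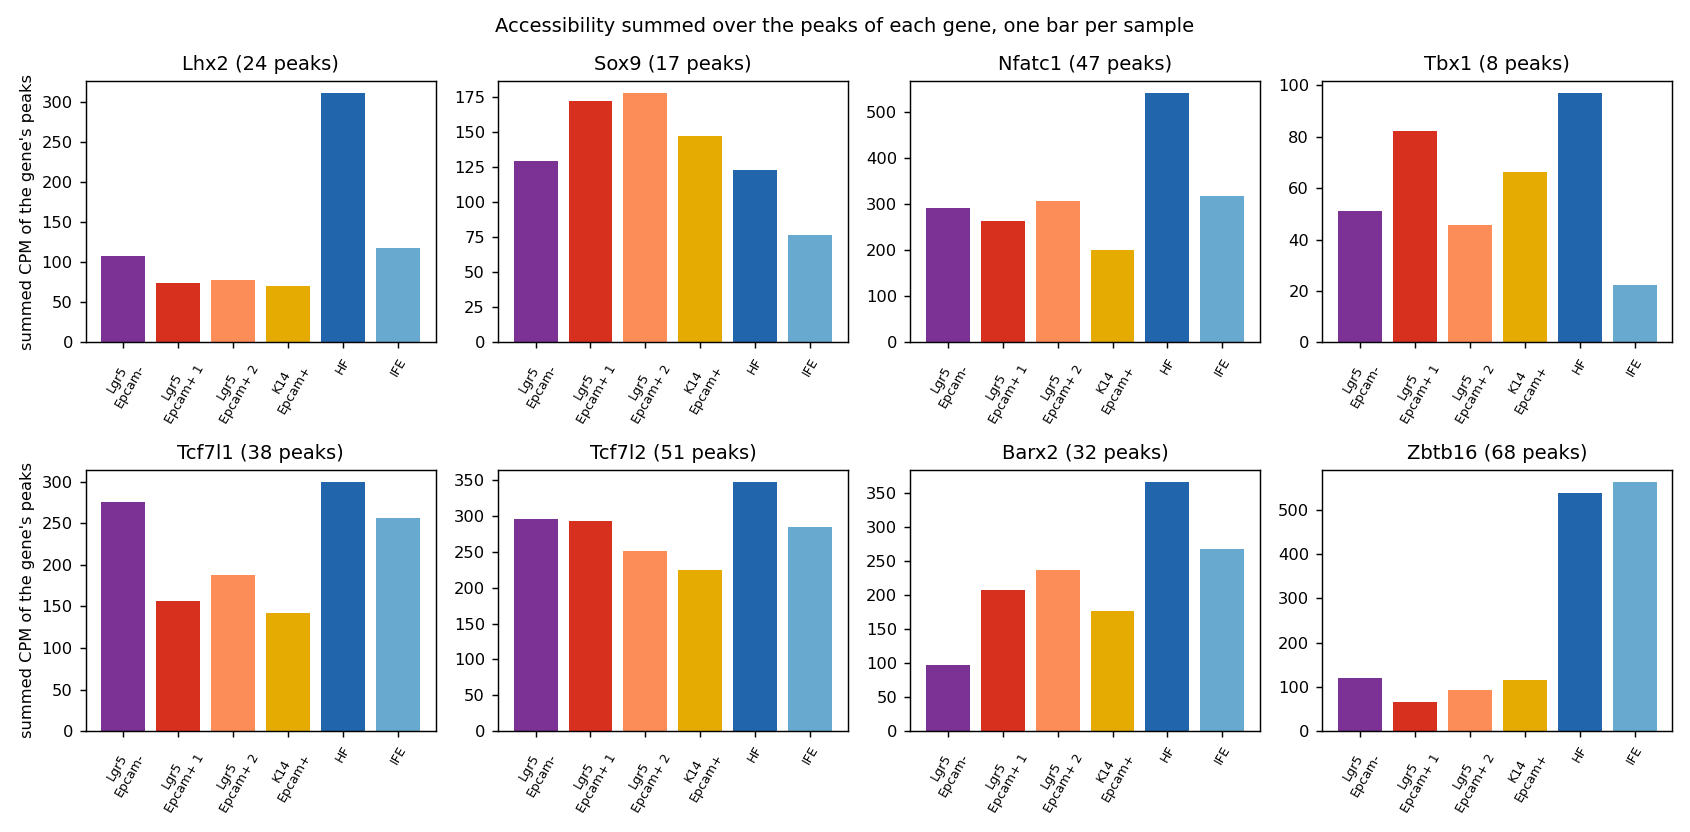
Summed accessibility in CPM (y axis, from 0) of each of the 8 genes, 1 panel per gene and 1 bar per sample, with the 4 tumour samples left of HF and IFE. Zbtb16 falls to between 64.9 and 120 CPM in the 4 tumour samples, against 537 CPM in HF and 562 CPM in IFE, and Lhx2 stands highest in HF at 310 CPM.

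Tested over 18018 genes with edgeR's quasi-likelihood test and Benjamini-Hochberg adjustment, Lgr5 Epcam+ cells differed from HF at 2 of the 8 genes, both lower: Zbtb16 (log2 ratio -2.76 ± 0.33 SE, edgeR adjusted p = 0.0052) and Lhx2 (-2.02 ± 0.30, adjusted p = 0.0072). Over all genes 6.35% were called higher and 2.74% lower in this comparison, and the median log2 ratio was 0.22. The other 6 genes did not pass: Nfatc1 had -0.92 ± 0.31 (adjusted p = 0.087), Tcf7l1 -0.79, Barx2 -0.72, Tbx1 -0.60, Tcf7l2 -0.35 and Sox9 0.50 (adjusted p = 0.33), all as log2 ratios. When the 3 Epcam+ tumour samples were set against HF and IFE, 4 of the 8 genes were lower: Zbtb16 (-2.52 ± 0.27, edgeR adjusted p = 0.00093), Lhx2 (-1.39 ± 0.24, adjusted p = 0.0044), Tcf7l1 (-0.82 ± 0.25, adjusted p = 0.042) and Nfatc1 (-0.79 ± 0.24, adjusted p = 0.045). The last 2 calls were lost with both runs summed and with the paired-end run alone, in that order. The share of all genes called was 11.2% higher and 6.98% lower. Sox9 missed the threshold from the other side (0.72 ± 0.24, adjusted p = 0.062). These comparisons share HF and the Lgr5 Epcam+ samples, so their values are not independent of each other. Lists of cell type markers were read in the same comparisons. Of 6 mesenchymal markers, 4 were higher in Lgr5 Epcam+ cells than in HF (Twist1 1.56, Vim 1.5, Zeb2 1.45 and Prrx1 1.39 on the log2 scale; list median 1.42), and 5 in the Epcam+ tumours against the normal samples (median 1.36). Their summed level was 854 CPM in Lgr5 Epcam-, 568 and 612 CPM in Lgr5 Epcam+ and 475 CPM in K14 Epcam+, against 276 CPM in HF and 244 CPM in IFE, and none was at 0 in any sample. Ptprc, the leukocyte gene for CD45, was also higher in Lgr5 Epcam+ cells than in HF (1.47, edgeR adjusted p = 0.023), as the 1 called of 8 leukocyte markers. Of 8 fibroblast and pericyte markers, 0 were higher and 1 lower (Col1a2) in Lgr5 Epcam+ cells than in HF, with a median of 0.02. Of 8 endothelial markers, 0 were higher and 1 lower (Sox17), with a median of 0.42. In the Epcam+ tumours against the normal samples, 0 fibroblast and pericyte, 3 endothelial and 2 leukocyte markers were higher. There 1 marker of each of these 3 lists was lower. The part of all these markers in the lower Zbtb16 and Lhx2 values was not tested.

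Peak by peak, 123 of the 285 regions (43.2%) were lower in Lgr5 Epcam+ cells than in HF and 6 (2.11%) were higher by edgeR's quasi-likelihood test over all peaks, at an adjusted p under 0.05, where 7.47% of all peaks were lower and 9.37% higher. Zbtb16 alone gave 67 of the 123; without it 56 of 217 peaks (25.8%) were lower and 6 (2.76%) higher. The lower peaks were 16 of 24 at Lhx2, 11 of 32 at Barx2, 10 of 47 at Nfatc1, 9 of 51 at Tcf7l2, 6 of 38 at Tcf7l1, 2 of 17 at Sox9 and 2 of 8 at Tbx1. The median log2 ratio over a gene's peaks was -2.68 at Zbtb16, -2.07 at Lhx2, -1.03 at Nfatc1, -0.80 at Barx2, -0.53 at Tcf7l1, -0.51 at Tcf7l2, -0.46 at Tbx1 and 0.61 at Sox9, beside 0.01 over all peaks. All 123 were at least 1 lower on the log2 scale with the first Lgr5 Epcam+ sample alone and 122 with the second alone; the exception lies at Barx2. Both samples had entered the calls, so these counts follow largely from the selection and are no independent check. Scaling by total counts in place of TMM moved the median of all peaks to -0.32 and that of all genes to -0.11, and the split over all peaks to 14071 higher and 23000 lower, against 16607 and 13238. For the Epcam+ tumours against the normal samples, 125 regions (43.9%) were lower and 15 (5.26%) higher, with 13.9% lower and 15.3% higher over all peaks.

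Every one of the 4 tumour samples was below both normal samples at 141 of the 285 regions (49.5%, against 22.8% of all peaks) and above both at 20 (7.02%, against 20.1%). The highest of the 6 samples was HF at 130 regions (45.6%, against 13.3% of all peaks), and IFE at 68 (23.9%, against 23.0%). It was Lgr5 Epcam- at 45 (22.9% of all peaks), the first Lgr5 Epcam+ sample at 19 (18.8%), the second at 20 (12.2%) and K14 Epcam+ at 3 (9.84%). HF led most often at Lhx2 (20 of 24 peaks), Barx2 (18 of 32) and Nfatc1 (27 of 47). At Zbtb16 the lead was shared between HF (31 peaks) and IFE (36), and at Sox9 the second Lgr5 Epcam+ sample led at 7 of 17.

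**Figure D2:**
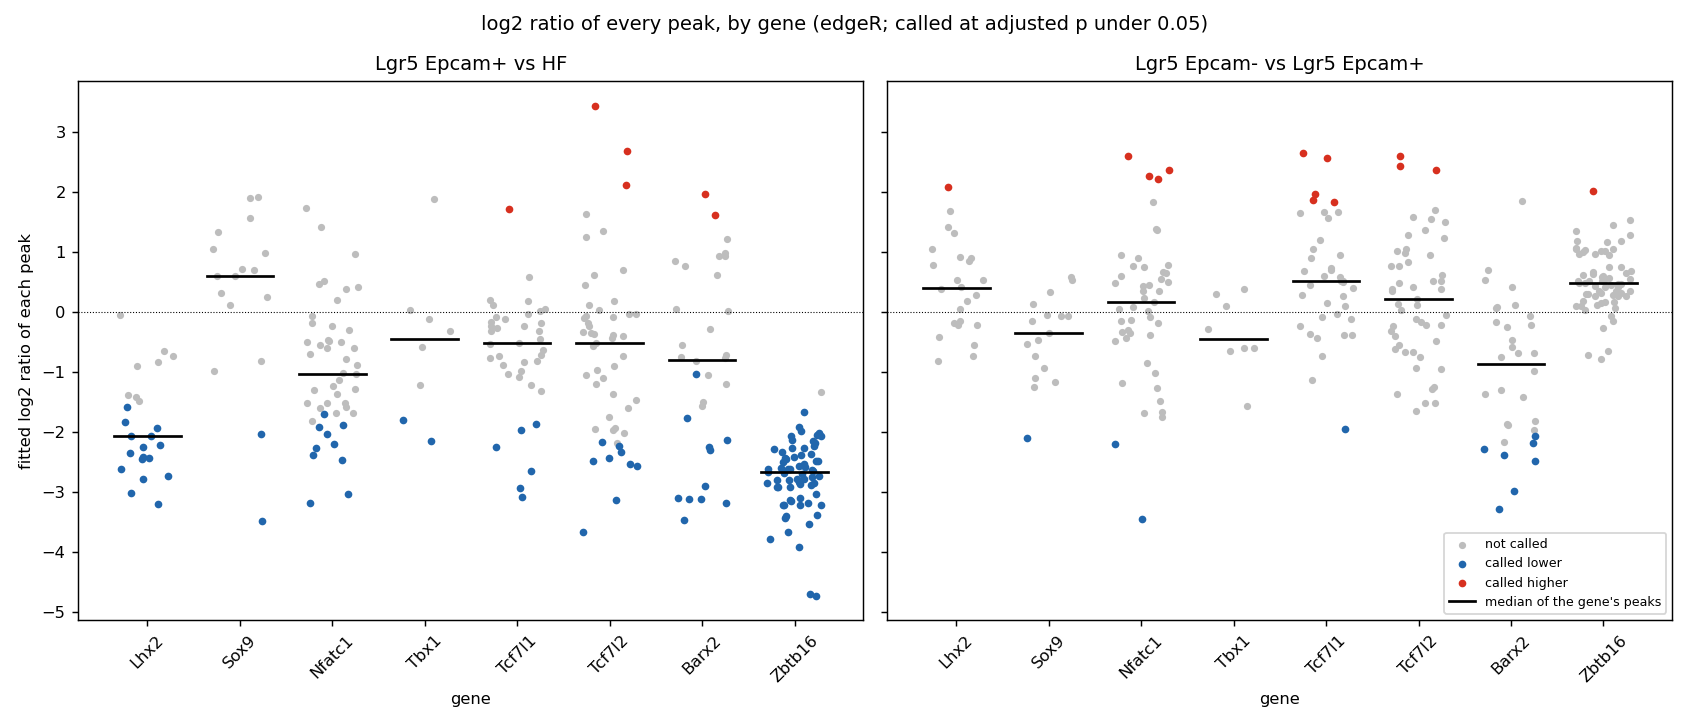
Log2 ratio of every peak (1 point each, y axis) by gene, for Lgr5 Epcam+ over HF and for Lgr5 Epcam- over Lgr5 Epcam+, coloured by the edgeR call, with the median of each gene as a line. In the first panel the Zbtb16 peaks run between -4.73 and -1.34 with a median of -2.68, and the Sox9 median of 0.61 is the 1 gene median above 0.

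Zbtb16 was lower along its whole length. Its span is chr9:48651797-48836225, and 67 of its 68 peaks were lower in Lgr5 Epcam+ cells than in HF; the 68 log2 ratios ran between -4.73 and -1.34. The median Zbtb16 peak had 1.10 CPM in Lgr5 Epcam-, 0.691 and 0.986 CPM in Lgr5 Epcam+ and 1.26 CPM in K14 Epcam+, against 4.84 CPM in HF and 5.41 CPM in IFE. The number of its peaks under 2 CPM was 55 in Lgr5 Epcam- cells, 63 and 58 in the Lgr5 Epcam+ samples and 54 in K14 Epcam+ cells, against 0 in HF and 3 in IFE. These tumour levels are among the lowest of the table, since the 5th percentile over all peaks was 1.01 CPM in Lgr5 Epcam-, 0.71 and 0.87 CPM in Lgr5 Epcam+, 1.02 CPM in K14 Epcam+, 1.46 CPM in HF and 1.19 CPM in IFE.

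The peak with the largest drop, chr9:48723235-48724290, had 1.10 CPM in Lgr5 Epcam-, 0.737 and 1.33 CPM in Lgr5 Epcam+ and 1.87 CPM in K14 Epcam+, against 27.4 CPM in HF and 23.2 CPM in IFE. Lgr5 Epcam+ over HF gave -4.73 ± 0.58 (SE, edgeR adjusted p = 0.00023) on the log2 scale. A second, starting at 48729515, was a follicle peak more than an epidermal one: 1.60 CPM in Lgr5 Epcam-, 1.22 and 1.74 CPM in Lgr5 Epcam+ and 1.70 CPM in K14 Epcam+, against 38.4 CPM in HF and 9.12 CPM in IFE. The reverse held at the peak starting at 48744506, with 2.28 CPM in Lgr5 Epcam-, 1.54 and 3.28 CPM in Lgr5 Epcam+ and 2.75 CPM in K14 Epcam+, against 17.3 CPM in HF and 44.8 CPM in IFE. The tumour cells were low at both, whichever normal tissue was higher. The Zbtb16 peak with the highest mean CPM, starting at 48739036, was lower by less, with 11.9 CPM in Lgr5 Epcam-, 7.60 and 12.3 CPM in Lgr5 Epcam+ and 10.1 CPM in K14 Epcam+, against 31.8 CPM in HF and 30.6 CPM in IFE. Lgr5 Epcam+ over HF was -1.67 on the log2 scale (edgeR adjusted p = 0.011). The 1 peak that did not pass starts at 48816812, a peak singled out after its values were seen; it had 2.61 CPM in Lgr5 Epcam-, 1.11 and 1.51 CPM in Lgr5 Epcam+ and 3.83 CPM in K14 Epcam+, against 3.31 CPM in HF and 3.45 CPM in IFE.

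Peaks near Zbtb16 assigned to other genes gave mixed values. The median log2 ratio of Lgr5 Epcam+ over HF was -2.54 at Nxpe4 (8 of 10 peaks lower), -1.37 at Tmprss5 (1 of 4), -0.71 at Nnmt (0 of 3), 0.30 at Rexo2 (0 of 3) and 0.53 at Usp28 (1 of 7). Over the 867 other peaks within 5 Mb it was -0.45, with 16.4% lower, and over chromosome 9 as a whole -0.48. Centring counts on the median of 10 Mb windows left 46 of the 68 Zbtb16 peaks lower and the gene at -2.11. DESeq2 called 49, with no adjusted p for 7. The leukocyte marker sums given above, of cells some of which use Zbtb16, were higher in the 4 tumour samples than in HF and IFE, opposite to Zbtb16.

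**Figure D3:**
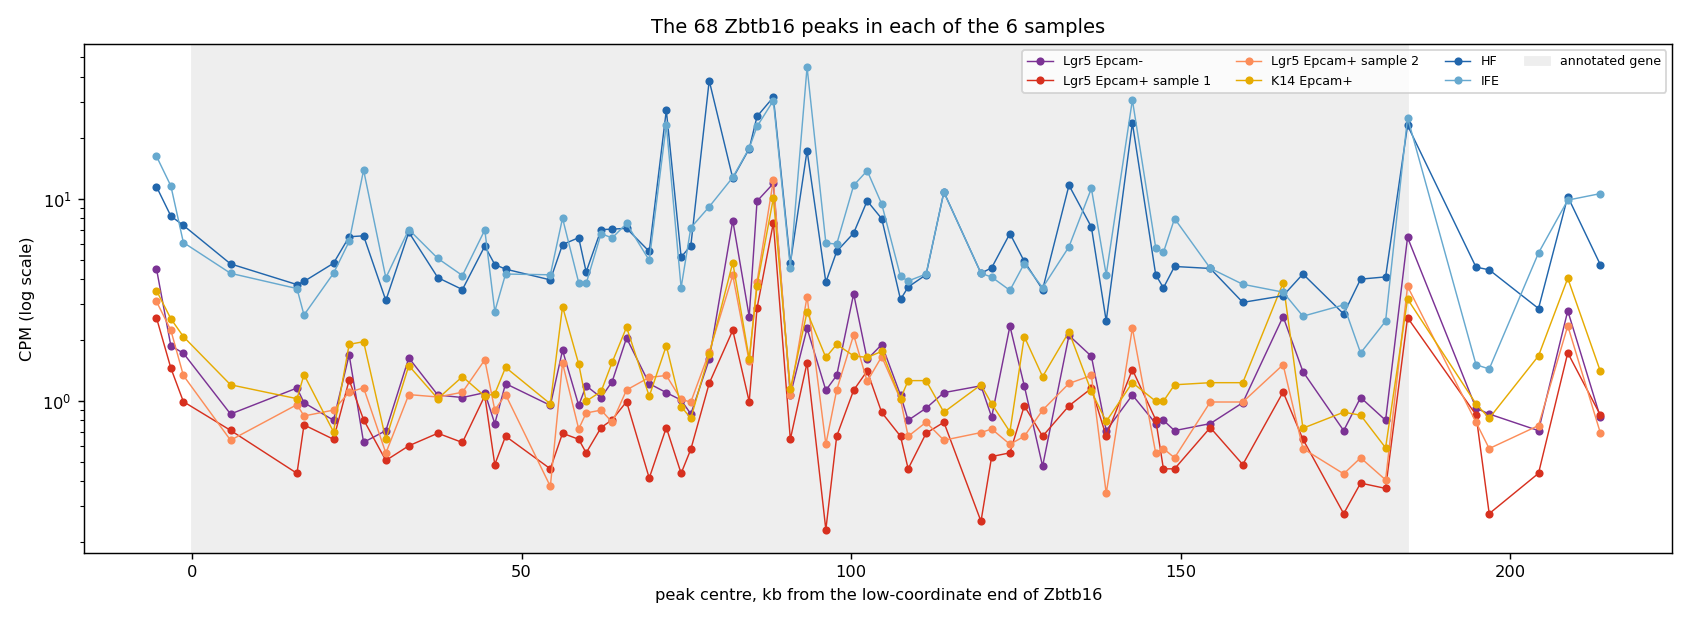
Level of the 68 Zbtb16 peaks in CPM (y axis, log scale) against distance in kb from the low-coordinate end of the gene (x axis), 1 colour per sample. The 4 tumour samples all lie below HF and IFE at 67 of the 68 peaks, and K14 Epcam+ is highest at the other. Medians are 0.691 to 1.26 CPM in the tumour samples, against 4.84 CPM in HF and 5.41 CPM in IFE.

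Lhx2 (chr2:38339271-38369737, plus strand) was lower in Lgr5 Epcam+ cells than in HF at peaks before the gene, inside it and just past its end. The peak starting at 38312841 lies 25.4 kb before the gene. Its Lgr5 Epcam+ over HF log2 ratio was -2.41 (edgeR adjusted p = 0.0088). The peak starting at 38319022, named after its values were seen, gave -2.22 (edgeR adjusted p = 0.016). Those starting at 38320585 and 38336449, also before the gene, did not pass (-0.04 and -1.41, edgeR adjusted p = 0.97 and 0.099). HF was also above IFE at 6 of the 24 Lhx2 peaks by the rule of size used where each group has 1 sample. The limit of that rule was a log2 ratio of 2 for a peak and 1 for a gene, with no test. The peak over the inner start, chr2:38350381-38351474, holds the inner window printed above; it had 17.1 CPM in Lgr5 Epcam-, 8.50 and 9.89 CPM in Lgr5 Epcam+ and 6.38 CPM in K14 Epcam+, against 47.0 CPM in HF and 14.2 CPM in IFE. The Lgr5 Epcam+ samples were 2.35 ± 0.38 below HF on the log2 scale (a ratio of -2.35, edgeR adjusted p = 0.0011). The peak over the outer start, chr2:38339219-38340799, had 5.49 CPM in Lgr5 Epcam-, 3.39 and 2.70 CPM in Lgr5 Epcam+ and 3.39 CPM in K14 Epcam+, against 7.96 CPM in HF and 3.38 CPM in IFE, and it did not pass (-1.39, edgeR adjusted p = 0.10).

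Within Lhx2, the peak chr2:38359209-38360730 had 8.36 CPM in Lgr5 Epcam-, 2.42 and 2.81 CPM in Lgr5 Epcam+ and 3.07 CPM in K14 Epcam+, against 24.2 CPM in HF and 3.92 CPM in IFE. HF was the highest there, and the 3 Epcam+ tumour samples were below IFE (Lgr5 Epcam+ over HF -3.21 ± 0.55, edgeR adjusted p = 0.0015). The peak 1.06 kb past the high-coordinate end, chr2:38370792-38373052, had 3.62 CPM in Lgr5 Epcam-, 4.26 and 4.18 CPM in Lgr5 Epcam+ and 2.99 CPM in K14 Epcam+, against 29.1 CPM in HF and 5.93 CPM in IFE. Its Lgr5 Epcam+ over HF log2 ratio was -2.78 ± 0.53 (edgeR adjusted p = 0.0030). Another past the gene, starting at 38380240, was open in both normal tissues, with 1.13 CPM in Lgr5 Epcam-, 1.91 and 2.06 CPM in Lgr5 Epcam+ and 1.49 CPM in K14 Epcam+, against 8.31 CPM in HF and 8.80 CPM in IFE. The Epcam+ tumours over the normal samples gave -2.31 on the log2 scale (edgeR adjusted p = 0.0020). In K14 Epcam+ cells against IFE, 1 of 24 Lhx2 peaks was lower and 0 higher by the same rule. The log2 ratio of the whole Lhx2 gene there was -0.75, short of the limit of 1. The 614 other peaks within 5 Mb of Lhx2 had a median of 0.23 in Lgr5 Epcam+ over HF.

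Sox9 (chr11:112782210-112787757) moved in the opposite direction: 7 of its 17 peaks were higher and 2 lower in the Epcam+ tumours than in the normal samples, with a median log2 ratio of 0.71. The peak over the low-coordinate end of the gene, chr11:112781301-112782669, had its highest mean CPM, with 42.4 CPM in Lgr5 Epcam-, 43.4 and 45.5 CPM in Lgr5 Epcam+ and 36.4 CPM in K14 Epcam+, against 29.2 CPM in HF and 20.6 CPM in IFE. The Epcam+ tumours over the normal samples gave 0.71 ± 0.21 on the log2 scale (edgeR adjusted p = 0.021). The peak over the other end, starting at 112787752, had 11.8 CPM in Lgr5 Epcam-, 20.2 and 19.1 CPM in Lgr5 Epcam+ and 17.4 CPM in K14 Epcam+, against 11.9 CPM in HF and 3.88 CPM in IFE. There IFE stood apart, and K14 Epcam+ over IFE was 2.15 on the log2 scale, just past the limit of 2 used where each group has 1 sample (1.91 with the paired-end run alone). A peak 12.6 kb past the gene, starting at 112800396, had 3.86 CPM in Lgr5 Epcam-, 7.78 and 9.54 CPM in Lgr5 Epcam+ and 6.32 CPM in K14 Epcam+, against 2.31 CPM in HF and 2.12 CPM in IFE. The Epcam+ tumours were 1.74 above the normal samples on the log2 scale (edgeR adjusted p = 0.012). Against HF alone 0 of the 17 Sox9 peaks were higher in Lgr5 Epcam+ cells in edgeR, where 8 had an unadjusted p under 0.05 in either direction, and DESeq2 called 2 higher. The 2 lower ones in edgeR, named after their values were seen, start at 112739424 and 112771495, and the farther had 1.07 CPM in Lgr5 Epcam-, 0.553 and 0.928 CPM in Lgr5 Epcam+ and 0.995 CPM in K14 Epcam+, against 8.28 CPM in HF and 1.58 CPM in IFE.

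Nfatc1 (chr18:80606205-80713071) was lower at 13 of its 47 peaks and higher at 1 in the Epcam+ tumours than in the normal samples, while its peak of highest mean CPM passed no test. That peak, starting at 80655273 inside the gene, had 30.5 CPM in Lgr5 Epcam-, 37.1 and 31.8 CPM in Lgr5 Epcam+ and 25.3 CPM in K14 Epcam+, against 39.3 CPM in HF and 20.2 CPM in IFE, and the groups overlapped. The peak chr18:80565158-80566429, 39.8 kb before the low-coordinate end, had 1.82 CPM in Lgr5 Epcam-, 4.52 and 7.21 CPM in Lgr5 Epcam+ and 2.46 CPM in K14 Epcam+, against 48.0 CPM in HF and 10.7 CPM in IFE. The Lgr5 Epcam+ over HF ratio was -3.03 ± 0.57 on the log2 scale (SE, edgeR adjusted p = 0.0027). A peak beside it, starting at 80567116, was open in both normal tissues, with 0.938 CPM in Lgr5 Epcam-, 1.10 and 1.36 CPM in Lgr5 Epcam+ and 0.599 CPM in K14 Epcam+, against 11.2 CPM in HF and 11.9 CPM in IFE. The Epcam+ tumours over the normal samples gave -3.74 on the log2 scale (edgeR adjusted p = 0.00014). The 1 Nfatc1 peak that was higher in the Epcam+ tumours starts at 80587574 and had 4.28 CPM in Lgr5 Epcam-, 13.6 and 26.0 CPM in Lgr5 Epcam+ and 7.01 CPM in K14 Epcam+, against 5.97 CPM in HF and 2.59 CPM in IFE; the K14 Epcam+ sample was only just above HF (edgeR adjusted p = 0.027 for the 3 tumour samples together). This peak was also lower in Lgr5 Epcam- than in Lgr5 Epcam+ cells (-2.21, edgeR adjusted p = 0.048), a call lost with the paired-end run alone and with centring on 10 Mb windows.

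Tbx1 (chr16:18580979-18590671, minus strand) had the largest difference between the 2 normal tissues of the 8 genes. Its HF over IFE log2 ratio was 2.11 (95% counting interval 1.93 to 2.29) and that of Lhx2 was 1.40 (1.34 to 1.46), and no other of the 8 reached 1; over all genes, 1.73% were higher and 3.26% lower in HF by this rule of size. The interval covers counting error only and not the spread between mice. The peak chr16:18587723-18589135 covers most of the inner Tbx1 window printed above and had 12.8 CPM in Lgr5 Epcam-, 11.8 and 8.91 CPM in Lgr5 Epcam+ and 14.7 CPM in K14 Epcam+, against 24.3 CPM in HF and 3.09 CPM in IFE. The 4 tumour samples lay between the 2 normal ones there. K14 Epcam+ over IFE was 2.21 at this peak, and 1.43 when both runs were summed. Lgr5 Epcam+ over HF was -1.23 and did not pass (edgeR adjusted p = 0.15).

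For the whole Tbx1 gene, K14 Epcam+ over IFE was 1.56 (95% counting interval 1.39 to 1.75; 0.97, short of the limit, with both runs summed) while Lgr5 Epcam+ over HF was -0.60. The test of the difference between these 2 ratios, added after the values were seen, gave -2.17 ± 0.61 on the log2 scale (edgeR adjusted p = 0.78) for Tbx1 and -1.27 ± 0.47 (adjusted p = 0.78) for Lhx2. None of the 8 genes passed this test in edgeR or in DESeq2, and these 2 had an unadjusted p under 0.05. The 2 Lgr5 Epcam+ samples were far apart at Tbx1: the peak starting at 18581712 had 9.91 CPM in Lgr5 Epcam-, 21.6 and 8.63 CPM in Lgr5 Epcam+ and 14 CPM in K14 Epcam+, against 18.9 CPM in HF and 4.31 CPM in IFE. The 2 Tbx1 peaks lower in Lgr5 Epcam+ cells than in HF start at 18577369 (named after its values were seen) and 18580194, and the second (-1.79, edgeR adjusted p = 0.041) was not called with both runs summed or with the paired-end run alone. DESeq2 called neither. In the Epcam+ tumours against the normal samples, 0 of the 8 Tbx1 peaks passed in edgeR, 2 had an unadjusted p under 0.05, and DESeq2 called 0.

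Tcf7l1 (chr6:72626371-72789045, minus strand) did not pass a test at its start and moved both ways inside. The start peak, chr6:72788754-72789943, which holds the Tcf7l1 window printed above, had 33.0 CPM in Lgr5 Epcam-, 22.0 and 24.3 CPM in Lgr5 Epcam+ and 16.7 CPM in K14 Epcam+, against 25.3 CPM in HF and 13.2 CPM in IFE. Lgr5 Epcam+ over HF was -0.13 on the log2 scale (edgeR adjusted p = 0.84). The peak starting at 72723942 had 3.35 CPM in Lgr5 Epcam-, 3.25 and 5.54 CPM in Lgr5 Epcam+ and 3.16 CPM in K14 Epcam+, against 27.7 CPM in HF and 48.3 CPM in IFE; all 4 tumour samples were far below both normal ones (Epcam+ tumours over normals -3.29 ± 0.37, edgeR adjusted p = 3.8e-05). The opposite was measured at the peak starting at 72659541, which had 23.1 CPM in Lgr5 Epcam-, 16.1 and 21.8 CPM in Lgr5 Epcam+ and 15 CPM in K14 Epcam+, against 5.79 CPM in HF and 2.73 CPM in IFE. Here the Epcam+ tumours over the normal samples gave 2.08 ± 0.38 (edgeR adjusted p = 0.0013). Beyond the start, the peak starting at 72792279 was low in all 4 tumour samples, with 1.22 CPM in Lgr5 Epcam-, 1.82 and 1.45 CPM in Lgr5 Epcam+ and 1.73 CPM in K14 Epcam+, against 13.9 CPM in HF and 22.4 CPM in IFE. Here the Epcam+ tumours over the normal samples gave -3.39 (edgeR adjusted p = 0.00018).

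Tcf7l2 (chr19:55741797-55933659, plus strand) had 3 of its 51 peaks higher and 9 lower in Lgr5 Epcam+ cells than in HF. The 3 higher ones form a cluster before the gene, and of the 9 lower ones 1 lies before the gene and the others inside it. The peak chr19:55712239-55713330, 28.5 kb before the start, had 22.2 CPM in Lgr5 Epcam-, 41.4 and 23.4 CPM in Lgr5 Epcam+ and 28.2 CPM in K14 Epcam+, against 2.98 CPM in HF and 2.23 CPM in IFE. This was the largest gain among the 285 regions in Lgr5 Epcam+ cells over HF (3.44 ± 0.69 on the log2 scale, edgeR adjusted p = 0.0041), and K14 Epcam+ over IFE was 3.60. Its neighbour starting at 55713562 had 19.8 CPM in Lgr5 Epcam-, 31.4 and 21.0 CPM in Lgr5 Epcam+ and 23.5 CPM in K14 Epcam+, against 4.09 CPM in HF and 3.31 CPM in IFE. Its Lgr5 Epcam+ over HF log2 ratio was 2.68 (edgeR adjusted p = 0.013). The last peak of this cluster, starting at 55710613 and named after its values were seen, had 12.5 CPM in Lgr5 Epcam-, 13.6 and 15.4 CPM in Lgr5 Epcam+ and 9.47 CPM in K14 Epcam+, against 3.33 CPM in HF and 2.87 CPM in IFE. At all 3 the 4 tumour samples were above both normal samples.

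The Tcf7l2 start itself did not pass a test: the peak starting at 55740973, which holds the window with 6 GC boxes printed above, had 25.1 CPM in Lgr5 Epcam-, 23.2 and 15.2 CPM in Lgr5 Epcam+ and 18.6 CPM in K14 Epcam+, against 17.8 CPM in HF and 18.6 CPM in IFE. Lgr5 Epcam+ over HF was 0.11 on the log2 scale (edgeR adjusted p = 0.92). Inside the gene, the peak starting at 55830525 was high in HF alone among the 6 samples, with 1.29 CPM in Lgr5 Epcam-, 1.45 and 1.08 CPM in Lgr5 Epcam+ and 1.14 CPM in K14 Epcam+, against 16.3 CPM in HF and 1.37 CPM in IFE. Its Lgr5 Epcam+ over HF log2 ratio was -3.68 ± 0.59 (edgeR adjusted p = 0.0010). The peak starting at 55870518 was most open in IFE, with 4.51 CPM in Lgr5 Epcam-, 5.35 and 9.08 CPM in Lgr5 Epcam+ and 1.32 CPM in K14 Epcam+, against 15.5 CPM in HF and 32.8 CPM in IFE; K14 Epcam+ over IFE was -4.52.

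Barx2 (chr9:31846044-31913285) had 11 of its 32 peaks lower and 2 higher in Lgr5 Epcam+ cells than in HF, with lower peaks near both ends and in the middle of the gene. The peak chr9:31912697-31913804 at the high-coordinate end had 5.78 CPM in Lgr5 Epcam-, 22.6 and 25.7 CPM in Lgr5 Epcam+ and 12.6 CPM in K14 Epcam+, against 49.8 CPM in HF and 44.7 CPM in IFE. Lgr5 Epcam+ over HF was -1.04 on the log2 scale (edgeR adjusted p = 0.028). Near the low-coordinate end the peak starting at 31850830 had 1.96 CPM in Lgr5 Epcam-, 3.96 and 6.53 CPM in Lgr5 Epcam+ and 6.38 CPM in K14 Epcam+, against 44.7 CPM in HF and 28.0 CPM in IFE. Its Lgr5 Epcam+ over HF log2 ratio was -3.09 ± 0.43 (edgeR adjusted p = 0.00046). Between them, the peak starting at 31881283 had 2.05 CPM in Lgr5 Epcam-, 18.2 and 21.8 CPM in Lgr5 Epcam+ and 11.4 CPM in K14 Epcam+, against 5.10 CPM in HF and 3.45 CPM in IFE. There Lgr5 Epcam+ over HF was 1.97 (edgeR adjusted p = 0.033). The 3 Epcam+ tumour samples were thus above both normal samples at that peak and the Lgr5 Epcam- sample below them. The 625 other peaks within 5 Mb of Barx2 had a median log2 ratio of -0.86 in Lgr5 Epcam+ over HF, with 23.7% lower, beside the Barx2 median of -0.80, and after centring on 10 Mb windows the gene's ratio was 0.02.

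**Figure D4:**
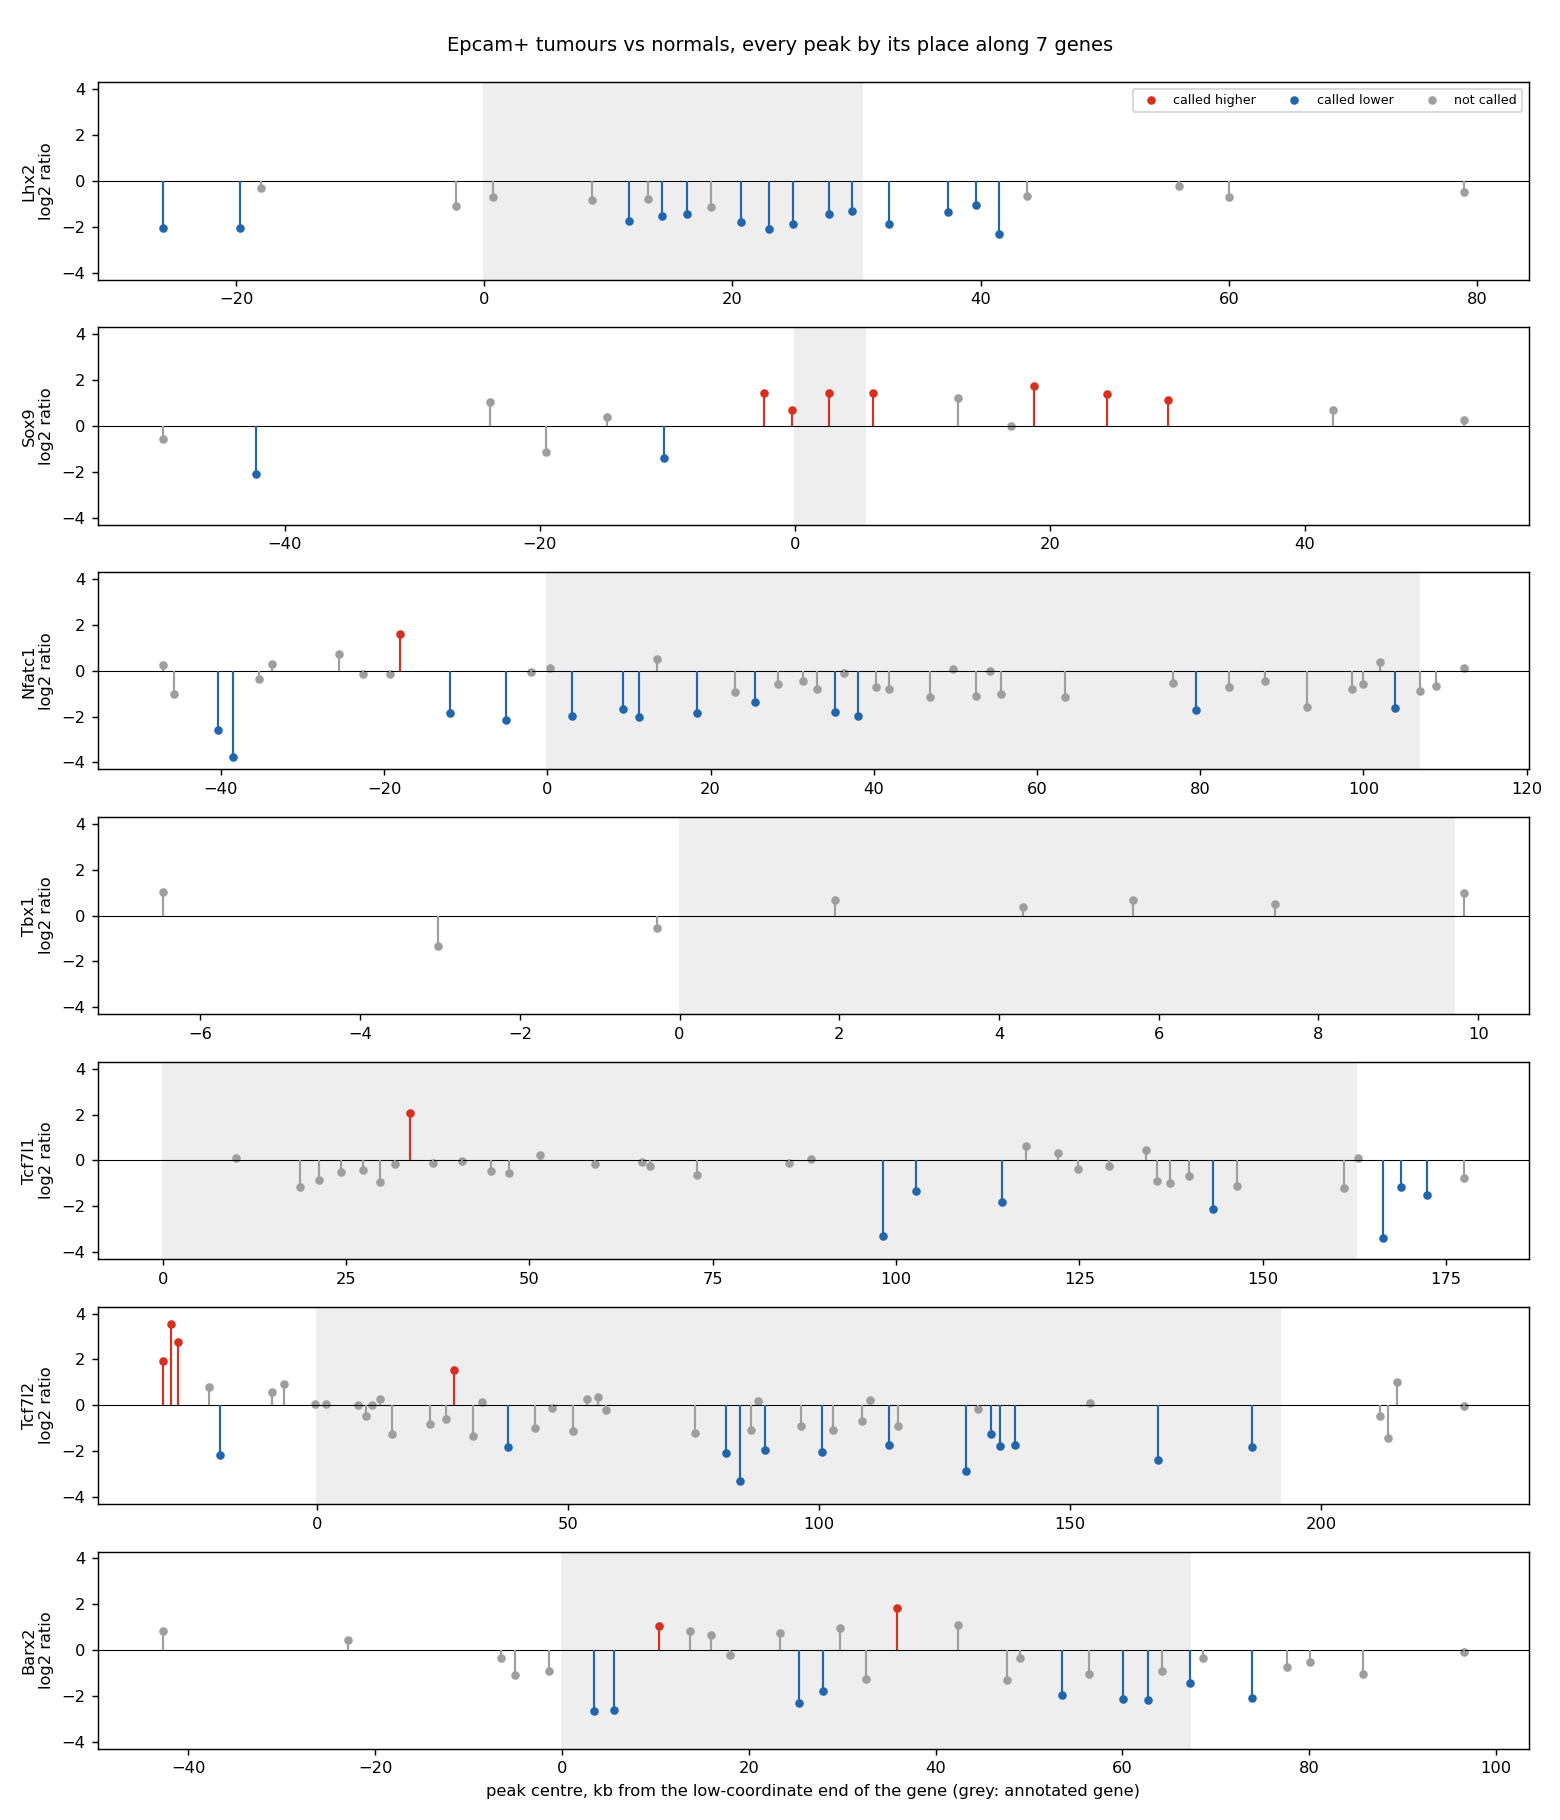
Log2 ratio of the Epcam+ tumours over the normal samples (y axis) for every peak of 7 genes, against distance in kb from the low-coordinate end of each gene (x axis), with the annotated gene in grey and points coloured by the edgeR call. The Tcf7l2 cluster before the gene rises to 3.55, while the 24 Lhx2 peaks lie below 0 with a median of -1.34.

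Within the Lgr5 tumours, 14 of 285 regions (4.91%) were higher and 11 (3.86%) lower in Lgr5 Epcam- cells than in Lgr5 Epcam+ cells. These shares were near those over all peaks, 6.58% and 5.49%. Without Zbtb16 they were 5.99% and 5.07%. Barx2 held 7 of the 11 lower peaks, and the other 4 were 2 at Nfatc1, 1 at Sox9 and 1 at Tcf7l1. The 14 higher peaks were 5 at Tcf7l1, 4 at Nfatc1, 3 at Tcf7l2, 1 at Lhx2 and 1 at Zbtb16. Beside these calls, 6 of the 8 fibroblast and pericyte markers were higher in Lgr5 Epcam- cells (Col1a2, a fibrillar collagen gene, 3.04, Rgs5, a pericyte gene, 2.72, and Col3a1, another collagen gene, 2.58, on the log2 scale) and 5 of 6 epithelial markers lower (Krt5 and Krt14, basal keratins, -2.70 and -2.20). The part of these cell types in the calls was not tested.

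The Barx2 peak starting at 31881283, with its values above, was 3.29 ± 0.64 lower (a log2 ratio of -3.29, edgeR adjusted p = 0.0062), and the peak at the high-coordinate end was lower as well (-2.06 ± 0.35, adjusted p = 0.0030). So was the peak starting at 31855777, which had 7.95 CPM in Lgr5 Epcam-, against 40.2 and 32.0 CPM in Lgr5 Epcam+, 33.4 CPM in K14 Epcam+, 11.8 CPM in HF and 24.1 CPM in IFE. This was a log2 ratio of -2.18 ± 0.38 (edgeR adjusted p = 0.0035). For the Barx2 gene as a whole the ratio was -1.20 ± 0.34 and did not pass (adjusted p = 0.074), and none of the 8 genes did in edgeR (Barx2 alone had an unadjusted p under 0.05, and DESeq2 called it), where 2.15% of all genes were higher and 2.57% lower; the other 625 peaks within 5 Mb had a median of 0.41, opposite to the Barx2 median of -0.87. At Nfatc1 the peak chr18:80583079-80584207, 22.0 kb before the gene, had 3.52 CPM in Lgr5 Epcam-, against 41.2 and 36.1 CPM in Lgr5 Epcam+, 24.6 CPM in K14 Epcam+, 56.9 CPM in HF and 20.9 CPM in IFE, a ratio of -3.45 ± 0.52 (edgeR adjusted p = 0.0017). This site was open in every other sample. The Sox9 peak chr11:112766736-112768244, 14 kb before the gene, was of the same kind, with 5.90 CPM in Lgr5 Epcam-, against 24.5 and 26.5 CPM in Lgr5 Epcam+, 16.2 CPM in K14 Epcam+, 20.6 CPM in HF and 11.7 CPM in IFE. On the log2 scale this was -2.11 ± 0.45 (edgeR adjusted p = 0.0090).

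Among the regions higher in Lgr5 Epcam- cells, the Tcf7l1 peak starting at 72711188 had 26.7 CPM in Lgr5 Epcam-, against 2.51 and 6.56 CPM in Lgr5 Epcam+, 2.08 CPM in K14 Epcam+, 4 CPM in HF and 2.66 CPM in IFE. The log2 ratio was 2.56 ± 0.61 (edgeR adjusted p = 0.016), and 3.38 without the second Lgr5 Epcam+ sample. No other sample came above 6.56 CPM. The Nfatc1 peak starting at 80636632 had 20.2 CPM in Lgr5 Epcam-, against 4.21 and 4.48 CPM in Lgr5 Epcam+, 4.44 CPM in K14 Epcam+, 6.59 CPM in HF and 5.39 CPM in IFE. This was a log2 ratio of 2.22 ± 0.55 (edgeR adjusted p = 0.019). A different pattern was seen at the Tcf7l1 peak starting at 72768668, which was open in HF: it had 14.6 CPM in Lgr5 Epcam-, against 2.99 and 5.16 CPM in Lgr5 Epcam+, 2.72 CPM in K14 Epcam+, 31.3 CPM in HF and 6.50 CPM in IFE. On the log2 scale this was 1.84 (edgeR adjusted p = 0.032). The Lhx2 peak starting at 38355072, named after its values were seen, was like it, with 6.44 CPM in Lgr5 Epcam-, against 1.36 and 1.68 CPM in Lgr5 Epcam+, 1.32 CPM in K14 Epcam+, 8.24 CPM in HF and 1.83 CPM in IFE. Its log2 ratio was 2.08, and the call was lost with the paired-end run alone and by DESeq2. Set against HF by size, Lgr5 Epcam- cells were lower at 87 regions (30.5%) and higher at 5 (1.75%), where 6.59% and 7.51% of all peaks were, and the genes lower were Zbtb16 (-2.16), Barx2 (-1.91) and Lhx2 (-1.53), among 7.36% of all genes.

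The 2 Epcam+ tumour types did not differ detectably at these genes. Between Lgr5 Epcam+ and K14 Epcam+ cells, 0 of 285 regions and 0 of 8 genes passed edgeR's quasi-likelihood test (over all peaks 0.00113% were higher and 0.00564% lower, over all genes 0.00555% and 0.00555%), 9 regions and 0 genes had an unadjusted p under 0.05, and DESeq2 called 0 of either. The widest gene ratios were -0.55 at Zbtb16 and 0.50 at Nfatc1, and with 1 K14 Epcam+ sample this does not show that they are alike. Against IFE by size, K14 Epcam+ cells were lower at 49 regions (17.2%) and higher at 5 (1.75%), where 5.97% and 7.42% of all peaks were; Zbtb16 held 32 of the 49. Without Zbtb16, 17 of 217 regions (7.83%) were lower. By the size rule for genes, Tbx1 was higher (9.4% of all genes were) and Zbtb16 lower (-2.28; 8.51% of all genes were). The 5 higher regions were 2 at Tcf7l2 and 1 each at Tcf7l1, Sox9 and Tbx1, all described above. Between the normal tissues 20 regions (7.02%) were higher in HF than in IFE and 0 lower, where 1.72% and 0.749% of all peaks were: 6 at Lhx2, 4 at Tbx1, 4 at Tcf7l2, 3 at Tcf7l1 and 1 each at Sox9, Nfatc1 and Zbtb16. The same rule also calls differences within a group. Between the first and second Lgr5 Epcam+ samples it gave 0 of the 285 regions higher and 2 lower. Over all peaks it gave 1036 higher and 1781 lower in that pair, against 3054 and 1328 in HF over IFE.

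**Figure D5:**
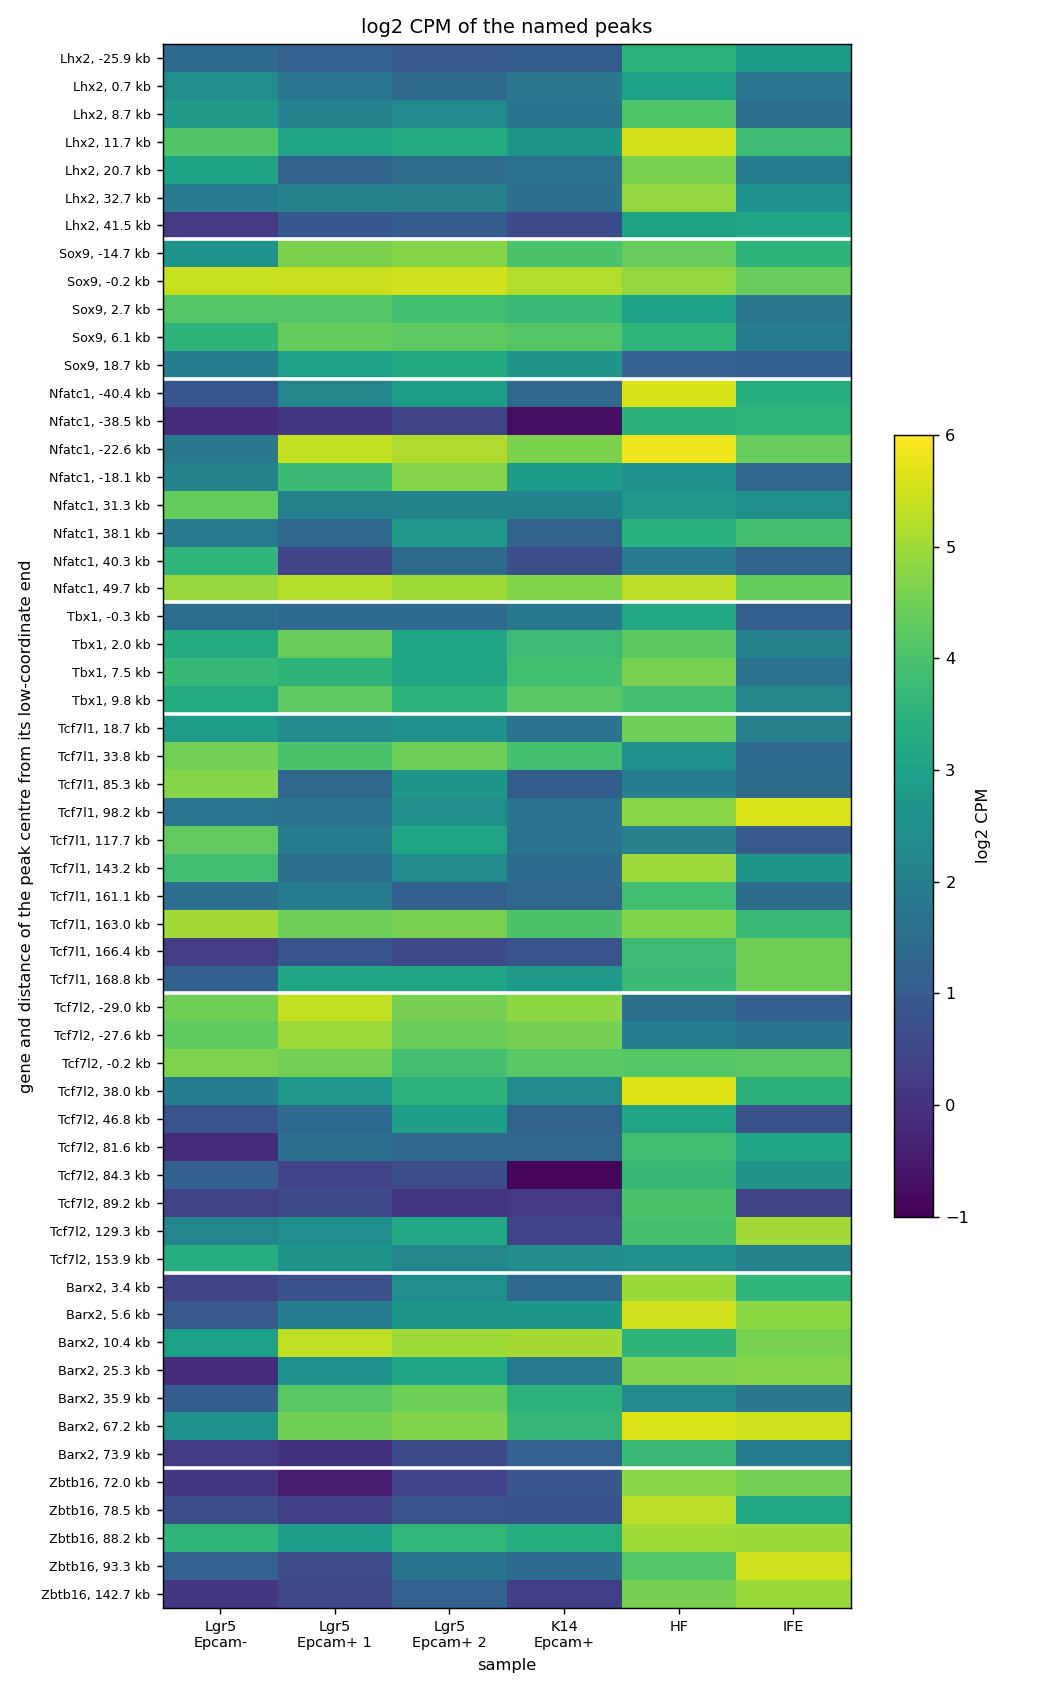
Heat map of log2 CPM for the 56 named regions (rows, grouped by gene) in the 6 samples (columns, tumour samples left of HF and IFE). Low levels are dark blue and high levels yellow. The Zbtb16 rows are dark in the 4 tumour columns, and the Tcf7l2 peak before the gene is bright there, at 22.2 to 41.4 CPM, against 2.98 CPM in HF and 2.23 CPM in IFE.

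Other genes of the follicle stem cell were described by the same sums over their peaks. The median log2 ratio of 14 other follicle stem cell genes in Lgr5 Epcam+ cells over HF was -0.06, beside 0.22 over all genes. Of the 14, 2 were lower and 0 higher, where 2.74% and 6.35% of all genes were. The 2 lower genes were Krt15 (-2.81 ± 0.29, edgeR adjusted p = 0.0042) and Lgr5 (-1.53 ± 0.30, adjusted p = 0.016). Krt15 had 9.85 CPM in Lgr5 Epcam-, 23.7 and 27.1 CPM in Lgr5 Epcam+ and 19.7 CPM in K14 Epcam+. It had 179 CPM in HF and 166 CPM in IFE. Cd34, a surface protein of mouse bulge cells, had 113 CPM in Lgr5 Epcam-, 143 and 190 CPM in Lgr5 Epcam+ and 123 CPM in K14 Epcam+, against 98.2 CPM in HF and 57.4 CPM in IFE, and was higher in the Epcam+ tumours (0.93 ± 0.25, edgeR adjusted p = 0.030). Of 16 other follicle transcription factors, 3 were lower in Lgr5 Epcam+ cells than in HF and 0 higher, beside the same 2.74% and 6.35%. Their median was -0.03. The 3 lower ones were Hoxc13, a hair shaft homeobox gene (-1.83), Gata6, a zinc finger factor of the upper follicle (-1.45), and Msx2, a homeobox gene of the hair matrix (-1.36). Against both normal samples 2 of the 16 were higher in the Epcam+ tumours, Runx1 (0.99) and Prdm1 (0.83), where 11.2% of all genes were. The 5 lower ones were Hoxc13 (-1.47), Gata6 (-1.45), Nfix (-1.13), Gata3 (-1.04) and Msx2 (-0.99), where 6.98% of all genes were. Of 11 relatives and partners of the Tcf factors, Tle4, a Groucho-family corepressor, was lower than in HF (-1.63, edgeR adjusted p = 0.019); the median was -0.04. Lef1, the Tcf relative of the hair matrix, was higher in the Epcam+ tumours than in the normal samples (0.89 ± 0.25, edgeR adjusted p = 0.034).

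Among the 2152 genes whose level ranged over at least 2 on the log2 scale across the 6 samples, those most like Zbtb16 were Heph (Pearson r = 0.998), Stpg2 (0.996) and Ankdd1b (0.995), and 81 genes had an r over 0.95. Those most like Lhx2 were Olfr1394 (0.989), Myoc (0.986) and Krt222 (0.982), with 25 genes over 0.95. Those most like Tbx1 were Krtap17-1 (0.938), Mrap (0.869) and Olfr1413 (0.833), and no gene was over 0.95. Each r describes 6 samples, of which 2 share a group and all share the peak set, and the other 5 genes ranged over less than 2.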

How the data were processed

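ATAC-seq counts of 12 runs from 6 samples were used. Per the labels, libraries were made with a Nextera kit from sorted cells; the submitters' processing notes name Bowtie2, HOMER, bedtools, HTSeq and mm10, with no versions; settings of peak calling, read filters and the handling of duplicates are not given there. The deposited files hold whole-number counts per peak, not normalized by the authors.

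Runs of a sample were summed on chromosomes 1 to 14, and the paired-end run alone was used from chromosome 15 on. Library sizes and TMM factors came from peaks of chromosomes 1 to 14. Peaks were assigned to the nearest protein-coding gene within 50 kb. edgeR 4.0.16 (R 4.3.3, limma 3.58.1) fitted quasi-likelihood models with 1 term of 5 groups over 177238 peaks, and over 18018 genes with the counts of their peaks summed, after a filter at a minimum count of 10; 1 residual degree of freedom gives the spread. Calls were at a Benjamini-Hochberg adjusted p under 0.05. Each SE was worked back from the log2 ratio and the quasi-likelihood F statistic, whose spread is drawn towards that of all peaks or genes. Comparisons of 1 sample with 1 used a size limit on log2 CPM (prior count 2): 2 for peaks and 1 for genes. Their intervals are 95% counting intervals and cover counting error only, since reads without molecular identifiers are not independent molecules. The procedure was tested on simulated data for Lgr5 Epcam+ against HF, with large changes at 200 peaks and less spread than in the real peaks. That test does not cover smaller changes, or a pair whose difference is only technical.

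Named peaks were, per gene, the one with the highest mean CPM, those over an annotated start, and per comparison up to 2 called higher and 2 called lower of largest ratio among peaks with a mean of at least 3.77 CPM, the median; exceptions are named as such. For the other lists up to 3 called genes per comparison and a few fixed markers were named. The genes and lists were chosen with earlier results of these data known. Alternatives were DESeq2 1.42.0, total-count scaling, other uses of the runs, centring on 10 Mb windows, no filter, 10 kb assignment, other size limits, a prior count of 0.5, and leaving out each Lgr5 Epcam+ sample. The start sites come from RefSeq tables on GRCm38.p6, and no genome sequence was used. The genotype of the tumour mice is given in part, since 1 further allele is not reported here.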

Additional observations from a re-analysis of the deposited data

How the results depend on the processing

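No paired analysis was possible because only the Lgr5 Epcam+ group has more than 1 sample. Leaving out either of its samples left no residual degree of freedom, so those values carry no test. Of the counts of called regions or genes, 154 stayed within 1.5 times of the reported one and 28 did not; the cause was not tested unless the setting itself is the cause. For regions, Lgr5 Epcam- against Lgr5 Epcam+ gave 23 higher with total-count scaling and 4 by DESeq2, against 14, and 7 lower with the paired-end run alone, against 11. HF against IFE gave 1 lower with the paired-end run alone and 1 with 10 Mb centring, against 0. K14 Epcam+ against IFE gave 3 higher with runs summed, against 5, and Lgr5 Epcam- against HF gave 9 higher with the paired-end run alone, against 5. A limit of 1 in place of 2 gave 76 higher and 11 lower in HF against IFE, 22 and 118 in K14 Epcam+ against IFE, and 29 and 156 in Lgr5 Epcam- against HF.

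For the 8 genes, Lgr5 Epcam+ against HF gave 5 lower with total-count scaling and 4 with 10 Mb centring, against 2; Lgr5 Epcam- against Lgr5 Epcam+ gave 1 lower with 10 Mb centring and 1 by DESeq2, against 0; and the Epcam+ tumours gave 1 higher by DESeq2 and 1 with peaks within 10 kb, against 0. K14 Epcam+ against IFE gave 0 higher and 2 lower with runs summed, against 1 and 1, 2 higher with the paired-end run alone and 2 with peaks within 10 kb. Lgr5 Epcam- against HF gave 5 lower with total-count scaling, against 3. A limit of 0.5 in place of 1 gave 4 higher in HF against IFE, 2 higher and 5 lower in K14 Epcam+ against IFE, and 5 lower in Lgr5 Epcam- against HF.

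Signs that turned were all of ratios that had not passed a threshold. Barx2 in Lgr5 Epcam+ over HF became 0.0205 with 10 Mb centring. Lhx2 in Lgr5 Epcam+ over K14 Epcam+ became -0.0598 with total-count scaling and -0.11 with 10 Mb centring, and Tbx1 there became 0.42 with runs summed, 0.0186 by DESeq2 and ran between -0.54 and 0.31 with either Lgr5 Epcam+ sample left out. In Lgr5 Epcam- over Lgr5 Epcam+, Nfatc1 ran between -0.0643 and 0.15 and Tbx1 between -0.68 and 0.17 with either Lgr5 Epcam+ sample left out, and Tcf7l2 became -0.24 with 10 Mb centring. Over all alternatives Zbtb16 in Lgr5 Epcam+ over HF stayed between -3.09 and -2.11 and Lhx2 between -2.35 and -1.98. Of the single values of regions and genes, 980 kept their side, 11 passed a threshold they had missed, 9 no longer passed and 17 moved. In 4 of the 5 groups there is 1 sample, so their spread is not known, and counts of low peaks also carry counting error.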
